A study of Homo sapiens with 10 samples.

Results

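The miRNAs hsa-miR-375, hsa-miR-7-5p, hsa-miR-9-5p, hsa-miR-9-3p, hsa-miR-124-3p and hsa-miR-153-3p, all known from endocrine or neural cells, were followed in ES-2, an established cell line from a human ovarian cancer. They were taken from the deposited table by a list of names and are 6 of the 2576 mature miRNAs in the deposited table, where 1196 had at least 1 read. The cells had been transfected with control siRNAs (siC, 2 libraries), with siRNA pools against IGF2BP1 (siIGF2BP1, 2 libraries), IGF2BP2 (siIGF2BP2, 3 libraries) or IGF2BP3 (siIGF2BP3, 3 libraries). All libraries came from this 1 line with no other treatment in the labels, and the 3 targets are paralogous RNA-binding proteins. The table holds mature miRNAs and 0 rows for IGF2BP transcripts, which leaves the knockdown itself and mRNA markers of the cells unmeasured. Libraries held 462724 to 1269743 reads. The labels name the source in one way for siC and siIGF2BP1 and in another for siIGF2BP2 and siIGF2BP3. Comparisons that cross these blocks therefore contain any difference between the blocks, and knockdown and block cannot be told apart there. Only siIGF2BP1 vs siC and siIGF2BP2 vs siIGF2BP3 lie within a block.

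A miRNA is cut from a hairpin precursor, loaded into an Argonaute protein, and pairs through its seed (bases 2 to 8) with mRNAs that it represses. hsa-miR-375 is best known from pancreatic islets, where it restrains insulin secretion, and from other endocrine and epithelial cells. hsa-miR-7-5p is abundant in neuroendocrine cells and brain and is bound by the circular RNA CDR1as. hsa-miR-9-5p and hsa-miR-9-3p are the arms of the same hairpins and act in neural progenitors, hsa-miR-124-3p is the leading miRNA of differentiated neurons, and hsa-miR-153-3p is a brain miRNA whose hosts are genes of secretory granule proteins.

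Mature sequences from RefSeq (GRCh38.p14) were matched for 5 of the 6. They are shown, with the seed in capitals, because the seed sets which mRNAs each miRNA can pair with.
hsa-miR-375: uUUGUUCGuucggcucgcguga
hsa-miR-7-5p: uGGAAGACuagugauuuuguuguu
hsa-miR-9-5p: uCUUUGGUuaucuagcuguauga
hsa-miR-9-3p: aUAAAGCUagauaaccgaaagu
hsa-miR-153-3p: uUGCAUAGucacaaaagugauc
The 5 seeds were all distinct, and 0 other mature miRNAs among the 2370 in the RefSeq table shared any of them.

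The miRNAs lie at separate sites, given here in GRCh38.p14 from RefSeq with GENCODE v29 annotation, a later build than the authors' hg19. The mature hsa-miR-375 lies on the minus strand at chr2:219001648-219001669 in no annotated gene. The matched hsa-miR-153-3p gene, MIR153-1, lies on the same strand at chr2:219294126-219294147 in an intron of PTPRN, which encodes a dense-core granule protein, 292 kb away. The matched hsa-miR-7-5p genes lie in an annotated exon of HNRNPK (MIR7-1, chr9:83969811-83969834, minus strand) and in an intron of the lincRNA MIR7-3HG (MIR7-3, chr19:4770700-4770723, plus strand). The deposited table lists 3 copies of hsa-miR-7-5p and 2 of hsa-miR-153-3p, so the match by name did not place every gene, MIR7-2 among them. hsa-miR-9-5p is encoded in an intron of C1orf61 (MIR9-1, chr1:156420392-156420414, minus strand), an exon of LINC00461 (MIR9-2, chr5:88666902-88666924, minus strand) and an intron of MIR9-3HG (MIR9-3, chr15:89368032-89368054, plus strand).

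The 3 MIR9 hairpins show why mature reads cannot tell these genes apart. Both arms, in capitals, have the same letters in each hairpin, and the loops between them differ.
MIR9-1: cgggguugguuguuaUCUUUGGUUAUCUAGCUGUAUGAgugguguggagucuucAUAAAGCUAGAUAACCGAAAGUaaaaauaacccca
MIR9-2: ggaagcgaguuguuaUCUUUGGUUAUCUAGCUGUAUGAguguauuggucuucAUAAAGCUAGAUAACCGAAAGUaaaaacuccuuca
MIR9-3: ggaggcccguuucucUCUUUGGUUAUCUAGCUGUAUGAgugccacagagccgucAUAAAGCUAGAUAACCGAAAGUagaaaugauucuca

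The 6 miRNAs spanned a wide range of levels in ES-2 cells. Averaged over the 10 libraries, hsa-miR-7-5p was the most abundant, at a normalised read count of 1454 (rank 51 of all miRNAs), followed by hsa-miR-9-5p at 169.8 (rank 120) and hsa-miR-375 at 46.9 (rank 200). hsa-miR-153-3p (14.8, rank 282), hsa-miR-124-3p (12.6, rank 291) and hsa-miR-9-3p (1.43, rank 554) were low. Together the 6 took between 0.144% and 0.214% of the reads of a library. A normalised read count is the authors' scaled value of the recovered whole reads, and 1 read was worth 0.803 to 1.996 of these units, depending on the library. hsa-miR-7-5p and hsa-miR-9-5p had reads in 10 of 10 libraries, hsa-miR-375 and hsa-miR-9-3p in 5, and hsa-miR-124-3p and hsa-miR-153-3p in 4.

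**Figure D1:**
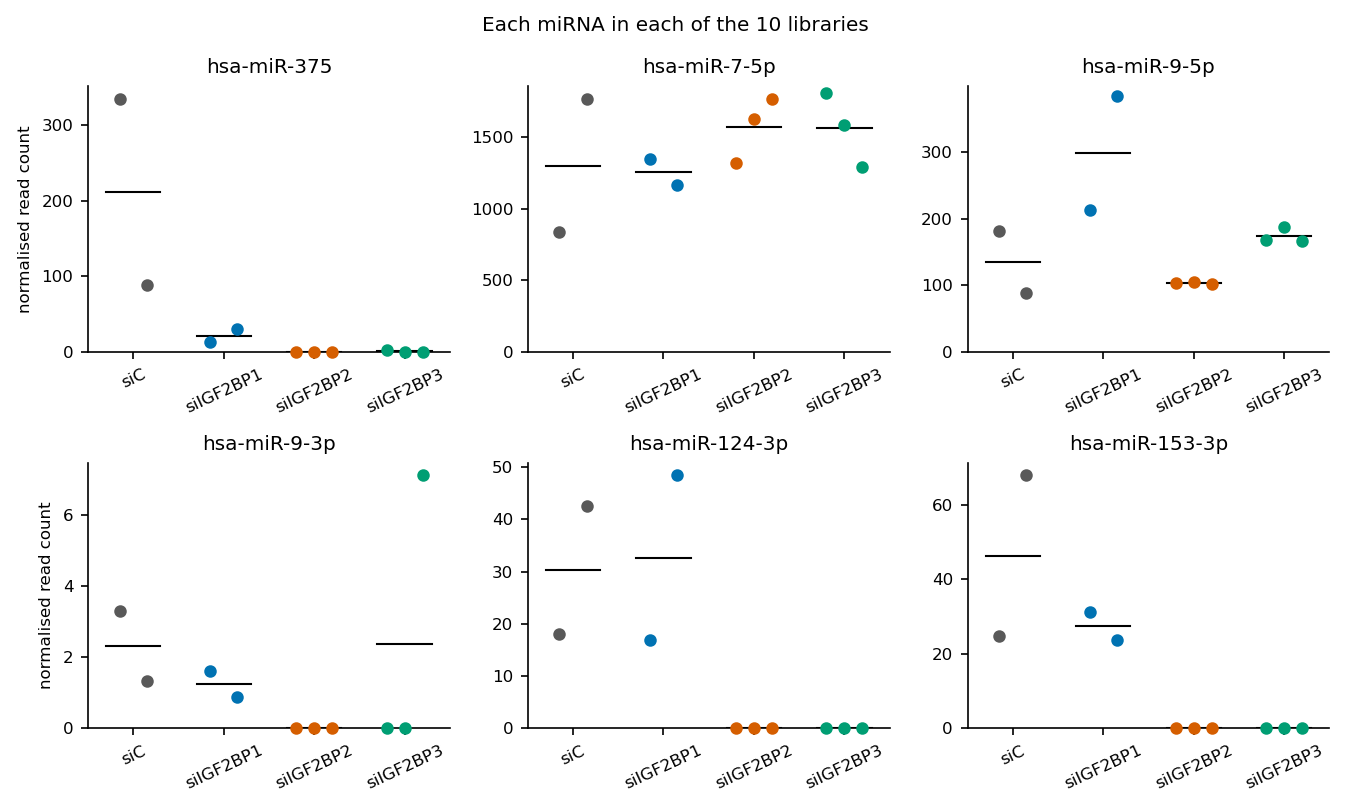
Normalised read count of each of the 6 miRNAs (linear axis from 0, a scale of its own in each panel) in the 10 libraries by group; points are libraries and bars are group means. hsa-miR-124-3p and hsa-miR-153-3p sit at 0 in all 6 siIGF2BP2 and siIGF2BP3 libraries, and hsa-miR-375 lies at 89.2 or above only in the 2 siC libraries.

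hsa-miR-375, the islet miRNA, was highest in the control libraries. Its normalised read count was 335 in siC C2 and 89.2 in siC C3, and 12.9 and 29.97 in the siIGF2BP1 libraries. It was 0 in all 3 siIGF2BP2 libraries, and in siIGF2BP3 it was 1.996 (1 read) in replicate 1 and 0 in replicates 2 and 3. No library of siIGF2BP1 reached the lower siC value, and no library of siIGF2BP2 or siIGF2BP3 reached the lower siIGF2BP1 value.

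Within the block, hsa-miR-375 averaged 212 ± 174 (SD, n = 2) in siC and 21.4 ± 12.1 (SD, n = 2) in siIGF2BP1. The log2 fold change was -3.07 ± 0.76 (SE), with an adjusted p of 0.0534 in limma, which missed the threshold of 0.05. In this comparison limma called 0 of the 6 miRNAs, against 2.47% of all 889 tested, and 122 of the 889 had an unadjusted p under 0.05. The call on hsa-miR-375 depended on the tool. edgeR's quasi-likelihood test on the recovered reads of the same 889 miRNAs, of which it called 5.17%, gave -3.40 with an adjusted p of 6.3e-18. edgeR restricted to the 335 miRNAs that pass its own expression filter (12.5% called) gave -3.56 with an adjusted p of 0.0119, and DESeq2 (9.17% called) gave -3.56 with an adjusted p of 9.33e-05. That filter was chosen after the results without it had been seen. The authors' deposited table gives -3.30 with a false discovery rate of 0.00198. Without siC C2 the limma fold change was -2.12 (adjusted p = 0.362), and without siC C3 it was -4.02 (adjusted p = 0.0506).

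Against siC, hsa-miR-375 was lower in both other knockdowns. The fitted log2 fold change was -7.44 ± 0.69 (SE) in siIGF2BP2 (limma, adjusted p = 1.12e-05) and -6.92 ± 0.69 in siIGF2BP3 (adjusted p = 1.69e-05). Set against a floor of 3 reads over the 3 siIGF2BP2 libraries, siC was at least 128-fold higher, and siC C3 alone at least 53.8-fold higher. Set against 1 read over the pooled depth of the 3 siIGF2BP3 libraries, rather than against their mean of 0.665, the ratio was 464 with a 95% counting interval from 83.2 to 18314. Against siIGF2BP1 the difference was smaller, with a log2 fold change of 4.37 ± 0.69 in siIGF2BP1 over siIGF2BP2 (adjusted p = 0.000832) and 3.84 ± 0.69 over siIGF2BP3 (adjusted p = 0.00153). Without siIGF2BP1 replicate 2 the latter was 3.26 with an adjusted p of 0.0529. These 4 comparisons cross the blocks.

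hsa-miR-124-3p, the neuronal miRNA, was low in one block and undetected in the other. Its normalised read count was 18.1 and 42.6 in siC, 16.9 and 48.5 in siIGF2BP1, and 0 in all 6 siIGF2BP2 and siIGF2BP3 libraries. These values rest on 11 and 32 reads in siC and 21 and 55 in siIGF2BP1. The siC and siIGF2BP1 libraries overlapped, with means of 30.4 ± 17.3 (SD, n = 2) and 32.7 ± 22.4 (SD, n = 2), and the log2 fold change was 0.04 ± 0.66 (SE; limma, adjusted p = 1).

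hsa-miR-153-3p, the other brain miRNA, had the same layout. It stood at 24.7 and 67.9 in siC (15 and 51 reads), at 31.3 and 23.8 in siIGF2BP1 (39 and 27 reads), and at 0 in all 6 remaining libraries. Means were 46.3 ± 30.5 (SD, n = 2) in siC and 27.6 ± 5.32 (SD, n = 2) in siIGF2BP1. The siIGF2BP1 library at 31.3 lay between the siC values, and the log2 fold change was -0.57 ± 0.61 (SE; limma, adjusted p = 0.794). A count of 0 still allows up to 3 reads in a library, so absence was not shown.

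Against siC, hsa-miR-124-3p fell by 4.85 ± 0.61 (SE) on the log2 scale in siIGF2BP2 and in siIGF2BP3 (limma, adjusted p = 0.000142 and 0.000148). hsa-miR-153-3p fell by 5.396 ± 0.56 in both (adjusted p = 2.41e-05 and 2.26e-05). The floor here was 3 reads over the pooled libraries of a group, not 3 in each library. Against it, the siC mean of hsa-miR-124-3p was at least 18.3-fold higher than siIGF2BP2 and at least 22.1-fold higher than siIGF2BP3. From the lower siC library, C2, these bounds were 10.9-fold and 13.2-fold. The corresponding bounds for hsa-miR-153-3p were 27.9-fold and 33.8-fold from the siC mean, and 14.9-fold and 18.04-fold from C2. The siIGF2BP1 mean was at least 19.7-fold and 23.8-fold higher for hsa-miR-124-3p and at least 16.6-fold and 20.1-fold higher for hsa-miR-153-3p. For hsa-miR-124-3p, the lower siIGF2BP1 library, replicate 1, gave 10.2-fold and 12.3-fold. For hsa-miR-153-3p, the lower library was replicate 2, with 14.36-fold and 17.35-fold.

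With hsa-miR-375 these were the 3 of the 6 that limma called lower in each comparison with siC. Over all 889 miRNAs, 7.76% were called lower in siIGF2BP2 vs siC (9.0% in either direction) and 8.66% in siIGF2BP3 vs siC (10.6% in either direction). The median log2 fold change of the 6 was -3.26 and -2.75, beside -0.03 and 0 over all 889. These medians fall between called and uncalled members, in a list chosen with earlier results known. hsa-miR-7-5p and hsa-miR-9-5p were not called (0.36 and -0.29 in siIGF2BP2 vs siC, 0.35 and 0.45 in siIGF2BP3 vs siC). hsa-miR-375, hsa-miR-124-3p and hsa-miR-153-3p were among the 889 only through their siC and siIGF2BP1 libraries. The 1 read of hsa-miR-375 in siIGF2BP3 would not have met the filter. The siC libraries are shared by both comparisons with siC.

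hsa-miR-9-5p, the neural progenitor miRNA, was present in every library and stood highest in siIGF2BP1. Its normalised read count was 181 in siC C2 and 87.8 in siC C3, and 213 and 384 in siIGF2BP1. It was 103, 105 and 101.9 in siIGF2BP2, and 168, 187 and 166 in siIGF2BP3. The order of the means was siIGF2BP1 (299 ± 121, SD, n = 2), siIGF2BP3 (174 ± 11.5, SD, n = 3), siC (135 ± 66.2, SD, n = 2) and siIGF2BP2 (103 ± 1.57, SD, n = 3). Both siIGF2BP1 libraries lay above both siC libraries, and all siIGF2BP3 libraries lay above all siIGF2BP2 libraries. siC overlapped with both of its neighbours in this order, and siIGF2BP1 and siIGF2BP3 did not overlap.

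The limma fit left both differences within a block under the threshold. In siIGF2BP1 vs siC the log2 fold change of hsa-miR-9-5p was 1.17 ± 0.32 (SE; adjusted p = 0.0743). In siIGF2BP2 vs siIGF2BP3 it was -0.74 ± 0.26 (adjusted p = 0.177), where limma called 0 of the 6 against 3.15% of 889, with 123 of the 889 at an unadjusted p under 0.05. edgeR on the same 889 miRNAs passed both, with 1.06 (adjusted p = 0.000743) and -0.70 (adjusted p = 0.0235), the second against 4.5% of 889 called. edgeR with its own expression filter passed neither, and DESeq2 gave an adjusted p of 0.0999 in siIGF2BP1 vs siC. Per genomic copy, the authors' deposited table gives log2 fold changes of 1.31, 1.29 and 0.91 in siIGF2BP1 vs siC, with false discovery rates of 0.0166, 0.123 and 0.580.

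Across the blocks, hsa-miR-9-5p was higher in siIGF2BP1 than in siIGF2BP2 by a log2 fold change of 1.46 ± 0.29 (SE; limma, adjusted p = 0.00425). Without siIGF2BP1 replicate 2, its highest library, the value was 1.04 with an adjusted p of 0.113, and with upper-quartile scaling that counts zeros it was 0.83 with an adjusted p of 0.0792. Over siIGF2BP3 it was 0.72 ± 0.29 (adjusted p = 0.130), where edgeR on the 889 miRNAs, which called 17.4% of them, gave 0.79 with an adjusted p of 0.0025 and limma after upper-quartile scaling of values above 0 gave 1.18 with an adjusted p of 0.0149. With hsa-miR-375, hsa-miR-124-3p and hsa-miR-153-3p, limma thus called 4 of the 6 higher in siIGF2BP1 than in siIGF2BP2, against 11.8% of 889 (13.5% in either direction). It called 3 of the 6 higher than in siIGF2BP3, against 12.3% (14.8% in either direction).

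hsa-miR-7-5p, the neuroendocrine miRNA, was abundant in every library and its groups overlapped. It stood at 841 and 1765 in siC, 1347 and 1170 in siIGF2BP1, 1320, 1630.5 and 1769.9 in siIGF2BP2 and 1810.1, 1589 and 1294 in siIGF2BP3. The siC libraries, which held the lowest value of all, enclosed both siIGF2BP1 libraries and overlapped with each other group. Means were 1303 ± 653 (SD, n = 2), 1258 ± 125 (SD, n = 2), 1573 ± 230 (SD, n = 3) and 1564 ± 259 (SD, n = 3) in that order of groups. limma called it in 0 of the 6 comparisons. The log2 fold change was 0.04 ± 0.28 (SE) in siIGF2BP1 vs siC, 0.36 ± 0.25 in siIGF2BP2 vs siC and 0.01 ± 0.23 in siIGF2BP2 vs siIGF2BP3. Without siC C3, siIGF2BP2 and siIGF2BP3 passed against siC with 0.89 (adjusted p = 0.0433) and 0.88 (adjusted p = 0.0419), and without siC C2 both turned to -0.18 and -0.19.

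hsa-miR-9-3p, the other arm of the MIR9 hairpins, was near the limit of detection. It had 2 and 1 reads in siC, 2 and 1 in siIGF2BP1, 0 in the 3 siIGF2BP2 libraries, and 0, 0 and 6 in siIGF2BP3, where replicate 3 reached a normalised read count of 7.14. All but that library were at or under 3 reads. The largest fitted log2 fold change was -1.66 ± 0.82 (SE) in siIGF2BP2 vs siC (limma, adjusted p = 0.334), and no comparison was called.

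**Figure D2:**
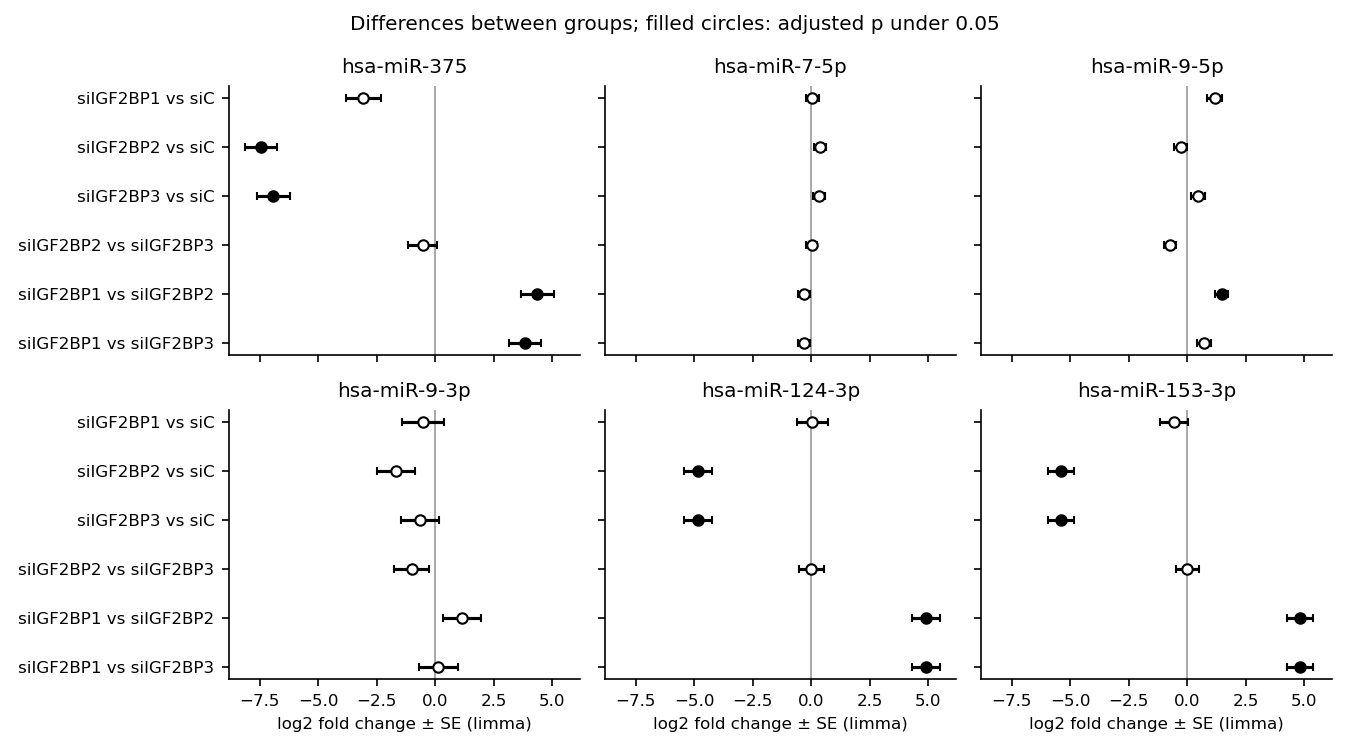
Log2 fold change (first group minus second, on log2(normalised read count + 1)) with its standard error from limma, for each of the 6 miRNAs in the 6 comparisons; filled circles have an adjusted p under 0.05. hsa-miR-375, hsa-miR-124-3p and hsa-miR-153-3p lie far from 0 where the blocks are crossed, while siIGF2BP2 vs siIGF2BP3 and siIGF2BP1 vs siC have no filled circle.

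The control libraries disagreed on these miRNAs in both directions. hsa-miR-375 was 3.76 times as high in siC C2 as in siC C3 (95% counting interval 2.84 to 5.03), and hsa-miR-9-5p 2.07 times (1.51 to 2.85). hsa-miR-7-5p (0.477, 0.430 to 0.528), hsa-miR-124-3p (0.426, 0.194 to 0.867) and hsa-miR-153-3p (0.365, 0.190 to 0.659) were lower in siC C2. In siIGF2BP1, replicate 1 was below replicate 2 for hsa-miR-375 (0.429, 0.221 to 0.798), hsa-miR-9-5p (0.554, 0.474 to 0.647) and hsa-miR-124-3p (0.348, 0.200 to 0.585), and above it for hsa-miR-7-5p (1.15, 1.07 to 1.24). For hsa-miR-153-3p it was 1.32 (0.786 to 2.24). The intervals cover counting error only, and that of hsa-miR-153-3p in siIGF2BP1 is the 1 of those listed that includes 1. One scaling factor per library cannot bring these pairs together, since the ratios lie on both sides of 1 within siC and within siIGF2BP1.

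The opposite arms of the hairpins were much rarer than the members. hsa-miR-9-3p had 12 reads beside 1446 of hsa-miR-9-5p, a share of 0.823% (exact 95% interval 0.426 to 1.43%). The share was 4.11% (1.52 to 8.73%) in siIGF2BP3 replicate 3. hsa-miR-7-1-3p, the arm opposite hsa-miR-7-5p in MIR7-1, had 161 reads, or 1.44% (1.23 to 1.68%) of the reads of both. Since hsa-miR-7-5p also comes from other MIR7 genes, this is not a share within the MIR7-1 hairpin. Its share was 2.16% and 2.14% in the siIGF2BP1 libraries, above the range of 0.812% to 1.499% in the other 8. limma gave hsa-miR-7-1-3p itself a log2 fold change of 0.73 ± 0.41 (SE) in siIGF2BP1 vs siC (adjusted p = 0.479).

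hsa-miR-7-2-3p, from the MIR7-2 hairpin, had 0 reads in all 10 libraries. The opposite arms of MIR7-1 and MIR7-2 can be told apart, unlike the shared 5p arm, and are shown with the letters that differ in capitals.
hsa-miR-7-1-3p: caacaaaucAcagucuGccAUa
hsa-miR-7-2-3p: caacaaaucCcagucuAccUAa
Counted from 1 at the 5′ end, the substitutions from the first to the second are A10C, G17A, A20U and U21A. Of the other opposite arms, hsa-miR-124-5p had 3 reads and hsa-miR-153-5p 3 reads, all in siC and siIGF2BP1.

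The table lists a mature miRNA once per genomic copy, and how reads were divided among copies is not given in the sources used here. Of the 10990 hsa-miR-7-5p reads, 0% were listed under the first copy, 48.9% under the second and 51.1% under the third. hsa-miR-9-5p reads were split 33.0%, 34.3% and 32.7%, hsa-miR-153-3p reads 48.5% and 51.5%, and hsa-miR-124-3p reads 47.1%, 24.4% and 28.6%. The copies are numbered in the table and are not tied there to a gene, and since their mature letters are the same, the split says nothing about which gene was transcribed. In siIGF2BP1 vs siIGF2BP2, each hsa-miR-9-5p copy passed in a limma fit to separate copies (log2 fold changes 1.35 to 1.61, adjusted p 0.00561 to 0.0267). The copies divide reads of the same letters from the same libraries, so these are not independent results. For hsa-miR-124-3p in siIGF2BP2 vs siC, the authors' deposited table gives false discovery rates of 0.000589, 0.00856 and 0.0674 for the 3 copies.

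**Figure D3:**
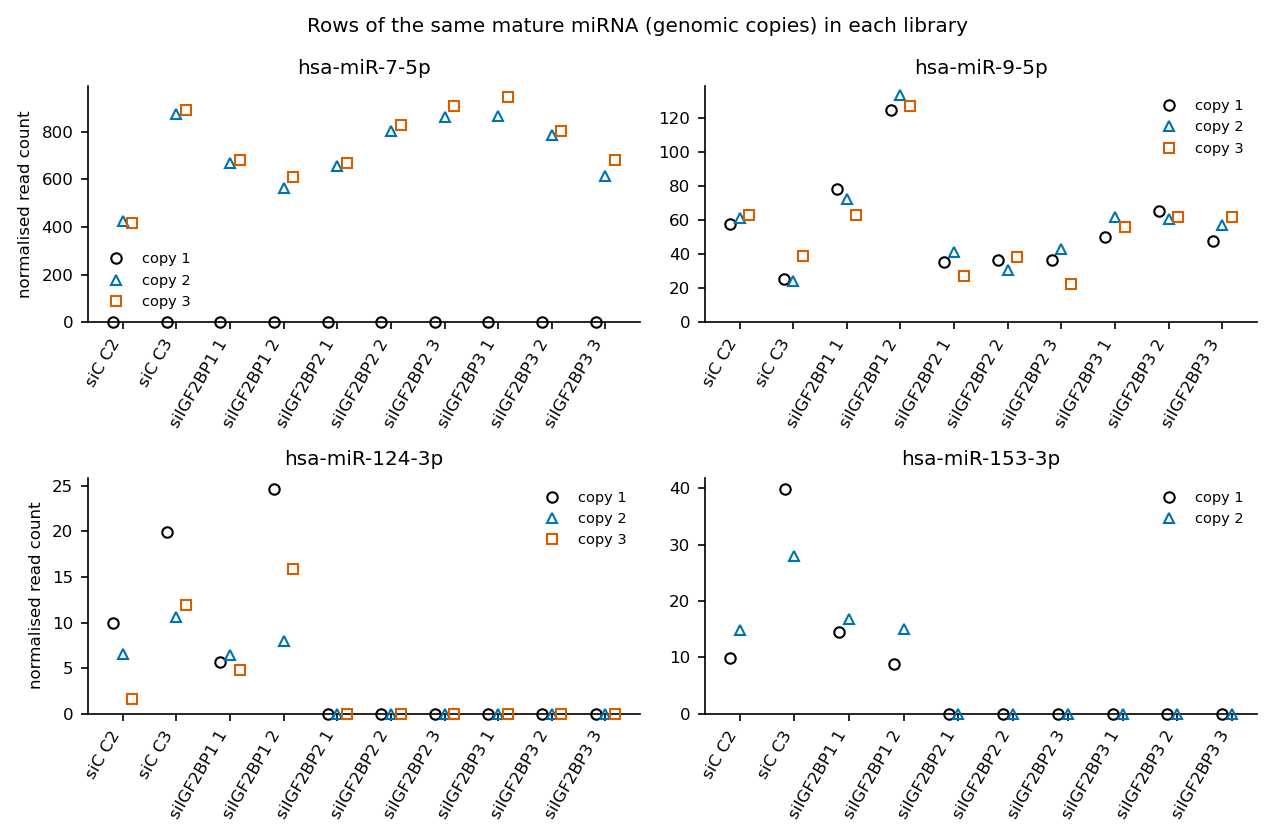
Normalised read count of each row (genomic copy) of 4 of the miRNAs in the 10 libraries, on linear axes from 0; symbols mark copies. The first hsa-miR-7-5p copy is at 0 throughout. Copies of hsa-miR-9-5p have group means of 94.8 to 103 in siIGF2BP1 and 29.2 to 38.2 in siIGF2BP2. Both hsa-miR-153-3p copies are at 0 in siIGF2BP2 and siIGF2BP3, and their highest siC values are 39.9 and 27.9.

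The libraries without hsa-miR-124-3p and hsa-miR-153-3p also lacked most miRNAs of the imprinted 14q32 cluster, a large group that is expressed from the maternal chromosome and is prominent in brain and placenta. That list took 0.170% to 0.442% of reads in siC and siIGF2BP1 libraries, with 45 to 50 of 53 miRNAs detected, and 0.000981% to 0.00195% in siIGF2BP2 and siIGF2BP3, with 4 to 6 detected. limma called 33 of the 46 tested lower in siIGF2BP2 vs siC and 36 lower in siIGF2BP3 vs siC (median log2 fold changes -2.91 and -2.93). Over all 889, 7.76% and 8.66% were called lower. Most of the 46 were among the 889 only through their siC and siIGF2BP1 libraries, where they are high. Their counts are therefore not a like comparison with these shares. The cluster members miR-381-3p and miR-127-3p had -8.06 and -7.67 in siIGF2BP2 vs siC. In siIGF2BP1 vs siC, 0 of the 46 were called, and in siIGF2BP2 vs siIGF2BP3 only miR-410-3p was (-1.49 ± 0.34, SE). That call rested on 0 reads in siIGF2BP2 and 4 in siIGF2BP3. The shares called over all 889 were 2.47% and 3.15%. The part of this block difference in the values of hsa-miR-375, hsa-miR-124-3p and hsa-miR-153-3p was not tested.

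Other neural miRNAs were divided. Their summed share was 0.166% to 0.325% in siC and siIGF2BP1 and 0.148% to 0.160% in the other block, with reads for 13 to 21 and 11 to 15 of 26. In siIGF2BP2 vs siC, 0 of the 20 tested were higher and 3 lower (median -1.01): miR-149-5p (-4.83 ± 0.65, SE), miR-137 (-3.52 ± 0.85), which acts in neuronal maturation, and miR-873-5p (-3.33 ± 0.92). In siIGF2BP3 vs siC, 3 were lower, with miR-218-5p, a motor neuron miRNA, at -2.16 ± 0.33, and miR-138-5p was higher (0.50 ± 0.13). In siIGF2BP1 vs siC, 2 were higher and 0 lower: miR-132-3p, which neuronal activity induces (1.47 ± 0.30), and miR-504-5p (2.10 ± 0.47). The call on miR-504-5p rested on 0 reads in siC and 8 in siIGF2BP1. Against siIGF2BP2 and siIGF2BP3, 9 and 7 of the 20 were higher in siIGF2BP1 and 0 lower, beside 11.8% and 12.3% higher over all 889. The counts against siC stand beside 7.76% and 8.66% called lower over all 889, and beside 19 of 889 called higher in siIGF2BP1 vs siC. The abundant members miR-128-3p and miR-138-5p kept group means of 438 to 666 and 521 to 736.

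Of 15 other endocrine and epithelial miRNAs, 7 were tested. Their share was 0.00235% to 0.0232% in siC and siIGF2BP1 and 0.000368% to 0.00222% in the other block. miR-204-5p was lower in siIGF2BP2 vs siC (-4.19 ± 0.91, SE) and in siIGF2BP3 vs siC (-5.60 ± 0.91), as was miR-95-3p (-2.39 ± 0.64 in both). Within siC alone the share of the list ran from 0.00235% to 0.0232%, and most of the 131 siC reads of miR-204-5p lay in siC C3. miR-95-3p had only 8 reads in siC, 10 in siIGF2BP1 and 0 in siIGF2BP2 and siIGF2BP3. The other 5 were not called, among them miR-141-3p (0.61 ± 0.72 and 0.83 ± 0.72) and miR-200c-3p (1.56 ± 0.80 and 1.73 ± 0.80), epithelial miRNAs with at most 6 reads in a group. The median over the 7 was 0.20 in siIGF2BP2 vs siC and -1.31 in siIGF2BP3 vs siC, and in siIGF2BP1 vs siC 0 were called. Over all 889, limma called 7.76% lower in siIGF2BP2 vs siC, 8.66% lower in siIGF2BP3 vs siC and 2.47% in siIGF2BP1 vs siC.

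Markers of other cell types moved in part with the same block. Blood cell markers took 0.0439% to 0.122% in siC and siIGF2BP1, with 6 to 7 of 8 detected, and 0.0440% to 0.163% in siIGF2BP2 and siIGF2BP3, with 2 to 5 detected. Within that list, miR-451a of red blood cells had 537 and 251 reads in siC and siIGF2BP1 and 1 and 4 in siIGF2BP2 and siIGF2BP3, while miR-142-5p of leukocytes had 572, 946, 872 and 1811. Most of the miR-451a reads lay in siC C3 and in siIGF2BP1 replicate 2, so its level also differed widely within these groups. miR-486-5p was at 0 throughout. limma called miR-451a, miR-144-3p and miR-144-5p lower in both comparisons with siC, 3 of the 7 tested, and 0 in siIGF2BP1 vs siC. Over all 889, it called 7.76% lower in siIGF2BP2 vs siC, 8.66% lower in siIGF2BP3 vs siC and 2.47% in siIGF2BP1 vs siC. Smooth muscle and fibroblast markers took 0.385% to 0.518% and 0.331% to 0.411%, with miR-143-3p at group means of 1222, 1064, 10.6 and 5.29 and miR-214-3p at 0. In the same list, miR-199a-3p kept group means of 2554, 2906, 2921 and 3296, and miR-199a-5p of 419, 480, 387 and 439. miR-143-3p and miR-145-3p were the 2 of 5 tested that were called lower in both comparisons with siC, beside the same 7.76% and 8.66% over all 889. miR-145-3p had only 4 reads in siC, 1 in siIGF2BP1 and 0 in siIGF2BP2 and siIGF2BP3. Muscle and liver markers took at most 0.00100%, with miR-122-5p of liver and miR-133b of muscle at 0. The part of other cells in the values of the 6 miRNAs was not tested. Fewer cells that express a miRNA and less of it per cell cannot be told apart in these bulk libraries.

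**Figure D4:**
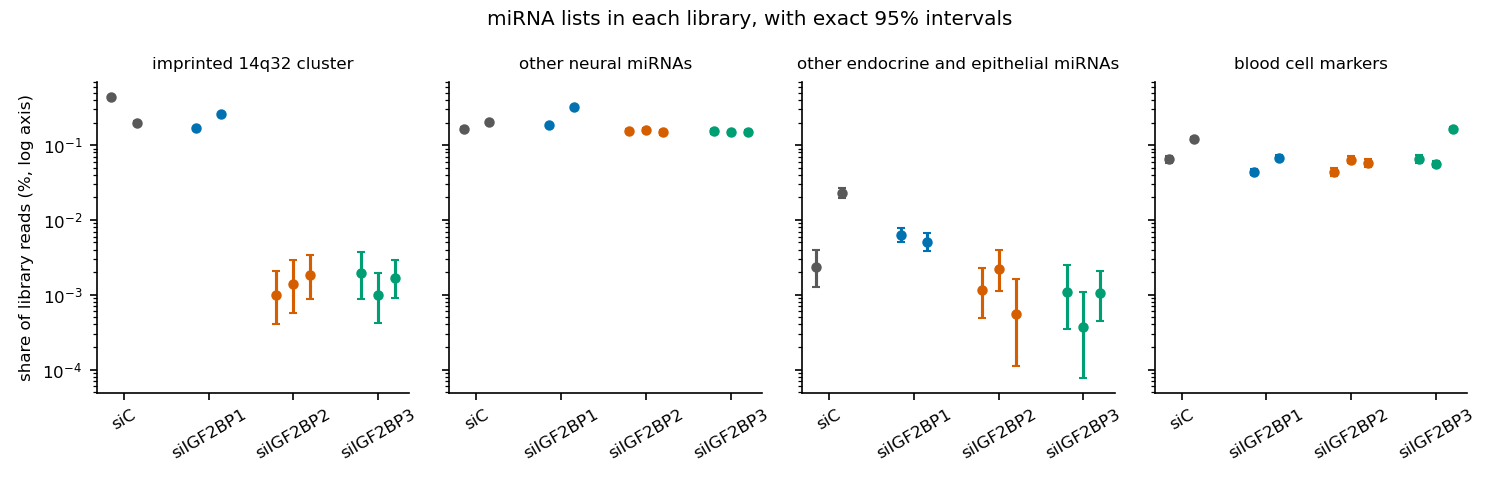
Share of library reads (percent, log axis) taken by 4 lists of miRNAs in each library, with exact 95% intervals. The 14q32 list lies at 0.170% or above in siC and siIGF2BP1 and at 0.00195% or below in siIGF2BP2 and siIGF2BP3, while the other neural miRNAs stay between 0.148% and 0.325%.

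The miRNAs whose profile over the 10 libraries was nearest to each member were found by the root mean square difference of centred log2 values, among miRNAs with a mean of at least 10. hsa-miR-124-3p and hsa-miR-153-3p were nearest to each other (0.475), followed for both by miR-323a-3p of the 14q32 cluster and miR-490-3p. hsa-miR-375 was nearest to miR-889-3p (0.973), miR-323a-3p (1.04) and miR-487b-3p (1.08), all of the 14q32 cluster. hsa-miR-7-5p was nearest to miR-15b-5p (0.189), miR-199a-3p (0.246) and miR-20a-5p (0.262). hsa-miR-9-5p was nearest to let-7f-1-3p (0.238), miR-25-5p (0.325) and miR-671-3p (0.407), whose means were also highest in siIGF2BP1. The sparse hsa-miR-9-3p was nearest to miR-374a-5p (0.732), miR-340-5p (0.755) and miR-505-3p (0.803). hsa-miR-9-5p and hsa-miR-9-3p, from the same hairpins, were 1.03 apart. These profiles share libraries and the block difference, so likeness is a description of the 10 libraries.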

How the data were processed

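Per the labels' protocols, small RNA libraries were made with a TruSeq kit from total RNA. Tools in the submitters' processing notes are edgeR 3.12, featureCounts 1.4.6, Bowtie2 2.2.4 and cutadapt 1.6, with genome hg19. Their settings, and the scaling, are not stated there. The values the authors deposited are a normalised signal, and in each library 100% were whole multiples of 1 read (tolerance 0.01 reads). The deposited log2 fold changes and p-values of the authors were used only where their table is named. Rows of 1 mature name (218 further genomic copies) were summed. The 2 control columns, C2 and C3, could not be tied to single samples. The labels do not say that libraries of a group were separate cultures, so p-values measure only a spread that may be technical. Replicate pairs differed by more than sampling noise, with chi-square divided by degrees of freedom between 8.17 and 46.8.

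limma 3.58.1 (R 4.3.3) with an intensity trend was run on log2(value + 1), which understates changes of low miRNAs, for the 889 miRNAs that reached 1 in 2 or more libraries. The 4 groups shared 1 fit, with a Benjamini-Hochberg threshold of 0.05. Whole reads were tested with edgeR 4.0.16 (quasi-likelihood, TMM) and DESeq2 1.42.0. edgeR was first run on the 889 miRNAs. Its restriction to 335 miRNAs by filterByExpr, TMM factors from those 335 and an upper quartile that includes zeros were added after the first versions' results had been seen, and both versions are reported. Shares have exact Clopper-Pearson 95% intervals (scipy 1.17.1). The test scripts were run on simulated data with known changes. Members and lists were chosen with earlier results of these data known. Named miRNAs are the 6, their opposite arms, up to 4 called members per list and comparison, and the 3 nearest profiles of each. miR-128-3p, miR-142-5p, the group levels of miR-138-5p, miR-143-3p, miR-199a-3p, miR-199a-5p and miR-451a, and markers at 0 were chosen after their values were seen.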

Additional observations from a re-analysis of the deposited data

How the results depend on the processing

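hsa-miR-375, hsa-miR-124-3p and hsa-miR-153-3p stayed called in siIGF2BP2 vs siC and siIGF2BP3 vs siC under every alternative run (other pseudocounts, filter, scalings, tools, each library left out, separate copies). In siIGF2BP1 vs siC, where limma called 0 of the 6, 1 was called with a pseudocount of 5, with upper-quartile rescaling, with DESeq2, with TMM factors from 335 miRNAs and with edgeR on those 335. 2 were called with edgeR on 889. The call was hsa-miR-375 except under upper-quartile rescaling, where it was hsa-miR-9-5p (adjusted p = 0.0497), and edgeR on 889 called both. hsa-miR-375 missed the threshold with a pseudocount of 0.1 (adjusted p = 0.408). In siIGF2BP2 vs siIGF2BP3, edgeR on 889 called 1, hsa-miR-9-5p. The definitions based on 335 miRNAs, and the upper quartile with zeros, were chosen after seeing the data: edgeR's change of filter removed its hsa-miR-9-5p calls outside siIGF2BP1 vs siIGF2BP2, and the TMM change added the hsa-miR-375 call. Over all miRNAs, 22 were called in siIGF2BP1 vs siC (19 higher, 3 lower), against 46 (28 and 18) with edgeR on 889, 42 (17 and 25) on 335, 31 (11 and 20) with DESeq2, 14 (14 and 0) with the upper quartile and 2 to 16 with a library left out. With zeros in the upper quartile, calls rose from 80 to 145 in siIGF2BP2 vs siC (11 higher to 79), from 94 to 160 in siIGF2BP3 vs siC and from 132 to 201 in siIGF2BP1 vs siIGF2BP3. edgeR on 335 gave 52 in siIGF2BP2 vs siC, and leaving out a library 53 to 64. In siIGF2BP2 vs siIGF2BP3, 28 became 1 with the upper quartile and 14 to 22 with a library left out. The upper quartile moved the median of all miRNAs in siIGF2BP2 vs siC from -0.03 to -0.22, or to 0.23 with zeros.

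Directions that reversed belonged to small differences, and the cause was not tested. hsa-miR-7-5p in siIGF2BP1 vs siC (0.04) was -0.042 with TMM, -0.21 with TMM from 335, -0.18 with the upper quartile with zeros, -0.13 and -0.30 with edgeR on 889 and 335, -0.28 with DESeq2, and -0.49 to 0.58 with a library left out. hsa-miR-124-3p there (0.04) was -0.041, -0.21, -0.17, -0.029, -0.19 and -0.12 in the same order, -0.21 for copies 1 and 2, and -0.69 to 0.78 with a library left out. With a library left out, hsa-miR-153-3p there ranged from -1.28 to 0.14. hsa-miR-7-5p ranged likewise from -0.18 to 0.89 in siIGF2BP2 vs siC, from -0.19 to 0.88 in siIGF2BP3 vs siC and from -0.12 to 0.13 in siIGF2BP2 vs siIGF2BP3. In the latter it was -0.017 with the upper quartile and -0.014 for copy 3. With the upper quartile it was 0.18 in siIGF2BP1 vs siIGF2BP2 and 0.16 in siIGF2BP1 vs siIGF2BP3, and with zeros included it was called in both (-0.94 and -0.91) and in siIGF2BP2 vs siC (0.76, adjusted p = 0.0488). hsa-miR-9-5p in siIGF2BP2 vs siC was 0.11 with zeros included and -0.81 to 0.23 with a library left out, and in siIGF2BP3 vs siC -0.065 to 0.97. hsa-miR-9-3p was 0.15 in siIGF2BP3 vs siC with edgeR on 889. In siIGF2BP1 vs siIGF2BP3 (0.14) it was -0.11 with a pseudocount of 5, -0.98 with edgeR on 889, -0.12 with zeros included, -1.10 with DESeq2, -0.27 for copy 1 and -0.37 to 1.15 with a library left out.

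With the replicate number as a block, 0 of the 6 were called in siIGF2BP1 vs siIGF2BP2, siIGF2BP1 vs siIGF2BP3 and siIGF2BP2 vs siIGF2BP3, where the same fit called 0, 0 and 1 of all 889. This fit used only the groups compared and left out libraries without a same-numbered partner. It therefore had fewer degrees of freedom than the main fit, and the effect of the block alone was not tested. Deviations of same-numbered libraries from their group means correlated between -0.157 and 0.123, and those of other pairs between -0.150 and 0.201. With so few libraries a group, the deviations within a group constrain each other. The correlations therefore cannot show whether replicate numbers pair the libraries. No block could be fitted against siC, whose columns carry no replicate number. Depth limits hsa-miR-9-3p most, with 12 reads in all.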
